A study of Homo sapiens with 2 samples.

Results

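The BCL2 family decides whether a cell under stress keeps its mitochondrial outer membrane intact. The 10 genes described here were BCL2, BCL2L1 and MCL1, which encode anti-apoptotic members, BAX and BAK1, which encode the pore-forming effectors, and BBC3, PMAIP1, BCL2L11, BIK and BID, which encode members of the BH3-only class. They were taken by gene symbol from the 24462 symbols of 2 deposited read count files, and all 10 were found, each on 1 row. One file held undifferentiated H9 cells, an established human embryonic stem cell line (hESC), and the other held neural precursor cells (NPC) that had been derived from H9 in co-culture with the feeder line MS5, a mouse stromal line. Each group was 1 library of 1 cell line, with no treatment, passage or age named in the sample labels, so no test between the conditions was possible. The comparison asks how the expression of cell death regulators in the NPC differed from that in their parent line.

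As background, anti-apoptotic members hold the effectors and the BH3-only members in a groove on their surface. When BH3-only proteins are made or activated, they fill that groove or engage the effectors directly, BAX and BAK then oligomerise in the outer membrane, and cytochrome c leaves the mitochondria to start the caspase cascade. Human pluripotent cells are known for a low threshold to this pathway after DNA damage, and developing neurons for a dependence on survival signals that act through it.

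The members share the BH3 segment, a short helix, which in the effectors and the BH3-only members binds the groove. Its coding sequence is shown for the 5 genes called different between the libraries and for BBC3, as 39 bases of the GENCODE 29 reference transcripts (GRCh38, 5′ to 3′ on the coding strand). The capitals mark the codons of the conserved leucine, of the small residue that follows it and of the conserved aspartate.

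BCL2, chr18:63318352-63318390, minus strand, exon 2: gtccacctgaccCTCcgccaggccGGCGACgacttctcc
MCL1, chr1:150578868-150578906, minus strand, exon 1: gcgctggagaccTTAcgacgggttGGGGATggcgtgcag
BAK1, chr6:33575390-33575428, minus strand, exon 4: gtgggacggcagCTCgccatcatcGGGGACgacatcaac
BBC3, chr19:47226582-47226620, minus strand, exon 3: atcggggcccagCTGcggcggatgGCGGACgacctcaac
PMAIP1, chr18:59902661-59902699, plus strand, exon 2: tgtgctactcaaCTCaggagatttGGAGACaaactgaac
BID, chr22:17739418-17739456, minus strand, exon 4: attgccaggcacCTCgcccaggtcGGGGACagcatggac

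Across the 10 genes the small residue was encoded by GGN, a glycine codon, in 9 and by GCG in BBC3. The stretch from the conserved leucine to the conserved aspartate was searched in translated sequences. It was found in 31 of the 50 coding transcripts that the basic GENCODE set lists for these genes. Counts per gene therefore do not separate transcripts with a BH3 segment from those without one, nor the long and short forms of BCL2L1 and MCL1, whose products act in opposite ways.

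Counted reads came to 19686728 (hESC) and 24065750 (NPC). Levels are given as CPM, read counts scaled to the TMM-adjusted library size, and ratios as NPC over hESC with an exact 95% interval that covers counting error only. A gene counted as measured from 5 CPM upwards in 1 library or both, and a gene was called higher or lower where the near bound of its interval was at least 2-fold. By that rule 39.4% of the 13535 measured genes differed, 19.6% higher and 19.8% lower in the NPC. Of the fixed pluripotency markers 8 of 8 were lower in the NPC (summed level 7859 CPM in hESC and 33.2 CPM in NPC, with ZSCAN10 at 0 reads in the NPC), and 6 of 8 measured neural progenitor markers were higher (630 and 1530 CPM). Neuron markers were higher in 6 of 9 (394 and 1728 CPM) and lower in 1, RBFOX3, at 396 and 59 reads, named after its values were seen. Stroma markers were higher in 6 of 9 measured, with 2 lower (848 and 1779 CPM), and no neuron or stroma marker was at 0 reads. Astroglia markers were higher in 2 of 2 measured of 5 (23.6 and 122 CPM), of which S100B passed the filter through the NPC library only. The astroglia markers below the filter had log2 ratios below 0. These were AQP4 (45 and 15 reads, -2.20), GFAP (35 and 44 reads, -0.32) and ALDH1L1 (12 and 13 reads, -0.54). The intervals of GFAP and ALDH1L1 included no change. None of 7 blood and endothelium markers was measured (3.16 and 1.84 CPM), with CD14 at 0 reads in the hESC and CD3E in the NPC. Of single markers, POU5F1 had 21886 and 18 reads, PAX6 18 and 2269 reads, and the collagen gene COL3A1 11 and 7837 reads. Most pluripotency markers, POU5F1 among them, passed the filter through the hESC library only, so no higher call was open to them. Some markers called higher, PAX6 and COL3A1 among them, passed it through the NPC library only, so no lower call was open to those. The part of these cell types in the differences below was not tested, and in bulk RNA fewer cells of a type and less RNA per cell cannot be told apart.

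BCL2 was higher in the NPC library, and PMAIP1, BID, BAK1 and MCL1 were lower. BCL2L1, BAX, BBC3 and BCL2L11 were measured and not called, and BIK was below the filter in both libraries. The 9 measured members thus held 1 higher and 4 lower genes, against 19.6% and 19.8% of all measured genes. Their median log2 ratio was -1.11, beside -0.09 over all measured genes. BCL2 and BBC3 passed the filter through the NPC library only, so no lower call was open to them, while the other 7 measured members passed the filter in both libraries. Scaling by the library total moved every log2 ratio up by 0.36 and the share of higher calls among all called genes from 49.7% to 67.2%. With it MCL1 was no longer called, and 1 member was higher and 3 were lower.

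**Figure D1:**
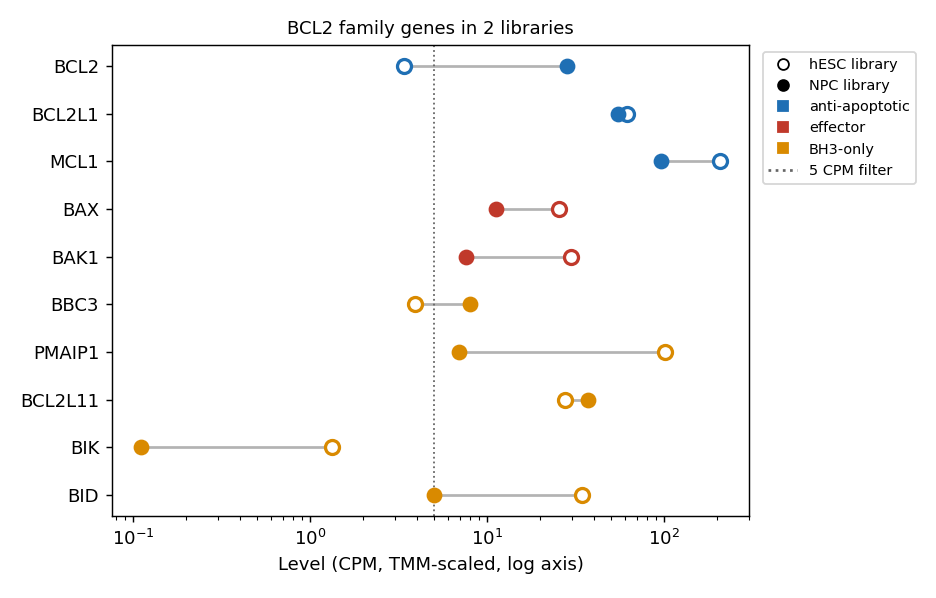
Level of each of the 10 genes (CPM on a log axis) in the hESC library (open circles) and the NPC library (filled circles), coloured by role, 1 library each and no error bars; the dotted line is the 5 CPM filter. PMAIP1 spans the widest gap among measured members, from 101 CPM to 6.95 CPM, and BCL2 moves the opposite way, from 3.39 CPM to 28.2 CPM.

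Among the anti-apoptotic genes, each of the 3 stood differently. BCL2, the founding member, whose protein is anchored in the outer mitochondrial and endoplasmic reticulum membranes by its tail, had 59 reads (3.39 CPM) in the hESC library and 767 reads (28.2 CPM) in the NPC library. The NPC level was 8.24-fold higher (6.37 to 11). Of all measured genes 94.1% had a lower ratio. BCL2 was the sole member called higher, and its hESC level was below the filter.

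MCL1, which encodes a short-lived protein that holds BAK in check, was the member with most reads in both libraries, 3602 in hESC (207 CPM) and 2620 in NPC (96.3 CPM). It was 2.15-fold lower in the NPC (2.05 to 2.26), just past the rule. Its log2 ratio was -0.75 with the library total, so its call rests on the scaling. BCL2L1, the gene of BCL-XL, had 1072 reads (61.7 CPM) and 1497 reads (55.0 CPM). Its log2 ratio of -0.16 (-0.28 to -0.05) was not called, and it changed sign with the library total (0.19) and with the trend over transcript length removed (0.03). Exons of BCL2L1 share 1424 bases with ABALON, a gene on the opposite strand that had 355 and 504 reads, and without a stated strand setting reads of the pair cannot be told apart.

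Of the effector genes BAK1 was called lower in the NPC library and BAX missed the rule. BAK1, whose protein sits in the outer membrane, had 518 reads (29.8 CPM) in hESC and 206 reads (7.57 CPM) in NPC, and was 3.93-fold lower (3.34 to 4.65). BAX, whose protein shuttles between cytosol and mitochondria, had 440 reads (25.3 CPM) and 307 reads (11.3 CPM), a ratio of 2.24-fold lower (1.93 to 2.60). Relative to each other, the read ratio of BAX to BAK1 was 0.849 in hESC and 1.49 in NPC. That ratio was 1.75-fold higher in the NPC (1.40 to 2.19), whose lower bound exceeds 1 but not 2.

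Of the BH3-only genes PMAIP1 and BID were called lower. PMAIP1, the gene of NOXA, which binds MCL1, had 1751 reads (101 CPM) in hESC and 189 reads (6.95 CPM) in NPC. It was 14.5-fold lower (12.5 to 16.9), and 97.4% of measured genes had a higher ratio. Its ratio was the lowest of the 9 measured members.

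BID, which caspase-8 cleaves to link death receptors to mitochondria, had 600 reads (34.5 CPM) and 137 reads (5.04 CPM). It was 6.83-fold lower in the NPC (5.68 to 8.31), with 95.2% of measured genes at a higher ratio. BIK, which encodes a BH3-only protein of the endoplasmic reticulum, had 23 reads in hESC (1.32 CPM) and 3 in NPC (0.110 CPM), a ratio of 10.5-fold lower (3.62 to 62.4) that was not called because neither level reached 5 CPM. With a filter at 1 CPM it was called lower.

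The remaining pair of BH3-only genes had point ratios above 1 and was not called. BBC3, the gene of PUMA, had 68 reads (3.91 CPM) and 219 reads (8.05 CPM), 2.05-fold higher in the NPC (1.56 to 2.74) with a near bound under 2-fold. With the length trend removed its log2 ratio went from 1.03 to 1.41 and it was called higher. BCL2L11, the gene of BIM, had 477 reads (27.4 CPM) and 1011 reads (37.2 CPM), 1.35-fold higher (1.21 to 1.51), which was not called. Its exons share 727 bases with MIR4435-2HG on the opposite strand. PMAIP1 and BBC3 thus had log2 ratios of opposite sign, -3.85 and 1.03, with intervals far apart (-4.08 to -3.64 and 0.64 to 1.46).

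**Figure D2:**
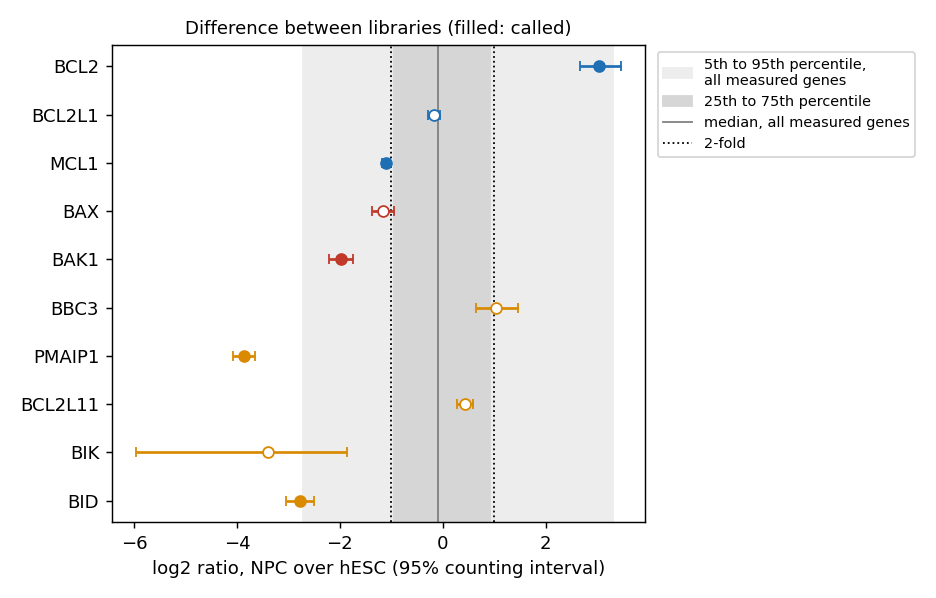
Log2 ratio of each member, NPC over hESC, with its exact 95% counting interval; filled points were called, and the grey bands hold the middle 50% and 90% of all measured genes. BCL2 lies at 3.04 within the 90% band, PMAIP1 at -3.85 and BID at -2.77 lie to the left of its edge at -2.72, and the interval of BIK, at 23 and 3 reads, is the widest.

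Read ratios between 2 members within a library need no scaling between libraries and no gene length. Of 13 such ratios, 7 were higher in the NPC with a near bound of 2-fold or more, none was lower and 6 were not called. The ratios share members and are not independent of each other. The pairs, and which gene stood on top, were set by choice, so the count by direction depends on that choice. No share over other gene pairs was computed, and the ratios restate the members' read counts. BCL2 had 0.134 reads per BAX read in hESC and 2.50 in NPC, 18.6-fold higher (13.7 to 25.6). Per BAK1 read it had 0.114 and 3.72, 32.6-fold higher (23.8 to 45.3). Against the other anti-apoptotic genes it was 9.30-fold higher per BCL2L1 read (7.04 to 12.5) and 17.9-fold higher per MCL1 read (13.6 to 23.8). Against BCL2L11 it was 6.13-fold higher (4.59 to 8.31). These 5 ratios all carry the higher BCL2 count.

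For the ratios without BCL2, MCL1 and PMAIP1, whose proteins bind each other, had a read ratio of 2.06 in hESC and 13.9 in NPC, 6.74-fold higher (5.74 to 7.94). BCL2L1 per BAK1 read was 3.51-fold higher (2.92 to 4.22) and per BAX read 2.0-fold higher (1.69 to 2.37), the latter not called. MCL1 per BAX read was 8.19 and 8.53, a ratio of 1.04 (0.891 to 1.22). BCL2L1 per BBC3 read was the one ratio with a point value below 1, at 15.8 and 6.84, 2.31-fold lower in the NPC (1.73 to 3.11) and not called.

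**Figure D3:**
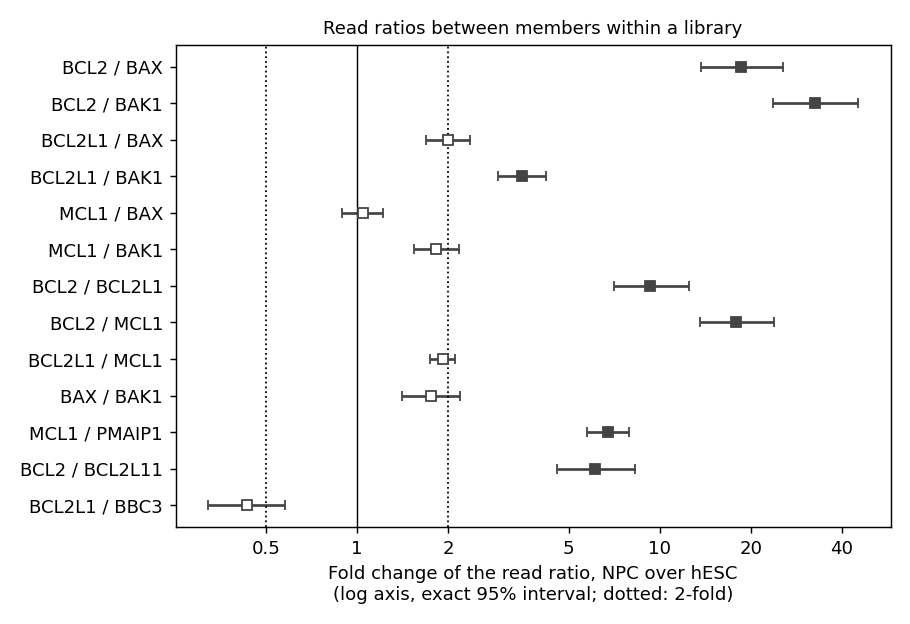
Fold change, NPC over hESC, of the read ratio of 2 members within a library, on a log axis with exact 95% intervals; filled squares were called, and dotted lines mark 2-fold. The 5 ratios with BCL2 as numerator lie between 6.13 and 32.6, and MCL1 over BAX lies at 1.04.

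Levels of different genes were compared per kilobase of annotated exon (CPM per kb, all exons of a gene in GENCODE 29). In the hESC library MCL1 (47.4 CPM per kb, 45.9 to 49.0) and PMAIP1 (45.1, 43.0 to 47.2) were the highest members, and their intervals overlapped. BCL2L1 followed at 18.6, BAK1 at 13.5, BAX at 9.78 and BID at 7.76. BCL2L11 stood at 4.12, while BIK (1.39, 0.880 to 2.08) and BBC3 (1.23, 0.955 to 1.56) overlapped and BCL2 was the lowest at 0.288. In the NPC library MCL1 (22.0) was again the highest and BCL2L1 (16.6) came next, both well above the rest. Then came BCL2L11 (5.58), BAX (4.36, 3.89 to 4.88), BAK1 (3.42, 2.97 to 3.92), PMAIP1 (3.11, 2.68 to 3.58), BBC3 (2.53, 2.21 to 2.89) and BCL2 (2.40, 2.23 to 2.57). From BAX to BCL2 the interval of each gene overlapped that of the next, so the order of these neighbours is not resolved. BID (1.13) and BIK (0.116) were the lowest.

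By role, the anti-apoptotic genes made up 44.5% of the summed CPM per kb of the 10 genes in hESC and 67.0% in NPC. The BH3-only genes made up 39.9% and 20.3%, of which PMAIP1 alone was 30.2% and 5.07%. The effectors made up 15.6% and 12.7%. With the median transcript length as gene length, the BH3-only genes made up 39.1% in hESC and 30.2% in NPC. These shares depend on which genes were listed. The BH3-only genes BMF (19.7 and 75.6 CPM) and BAD (14.0 and 34.9 CPM) are outside the 10 and were higher in the NPC. Also outside the 10, the effector-like gene BOK was lower and the anti-apoptotic gene BCL2L2 was not called. In sum the CPM per kb was lower in the NPC for each role, from 66.3 to 41.0 for the anti-apoptotic, from 23.3 to 7.79 for the effector and from 59.6 to 12.5 for the BH3-only genes. The order of levels depended on the length used. In the hESC library BAK1 stood above BAX with all exons, but below it with the longest transcript (13.5 and 18.6 CPM per kb) and with the median transcript length (14.0 and 37.4). BCL2L11 stood at 31.1 in hESC with the median transcript length. In the NPC library, with the median transcript length BCL2L1 (60.2 CPM per kb) and BCL2L11 (42.1) stood at or above MCL1 (40.7), with overlapping intervals for BCL2L11 and MCL1. MCL1 and PMAIP1 were the highest in the hESC library with each of the 3 lengths.

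**Figure D4:**
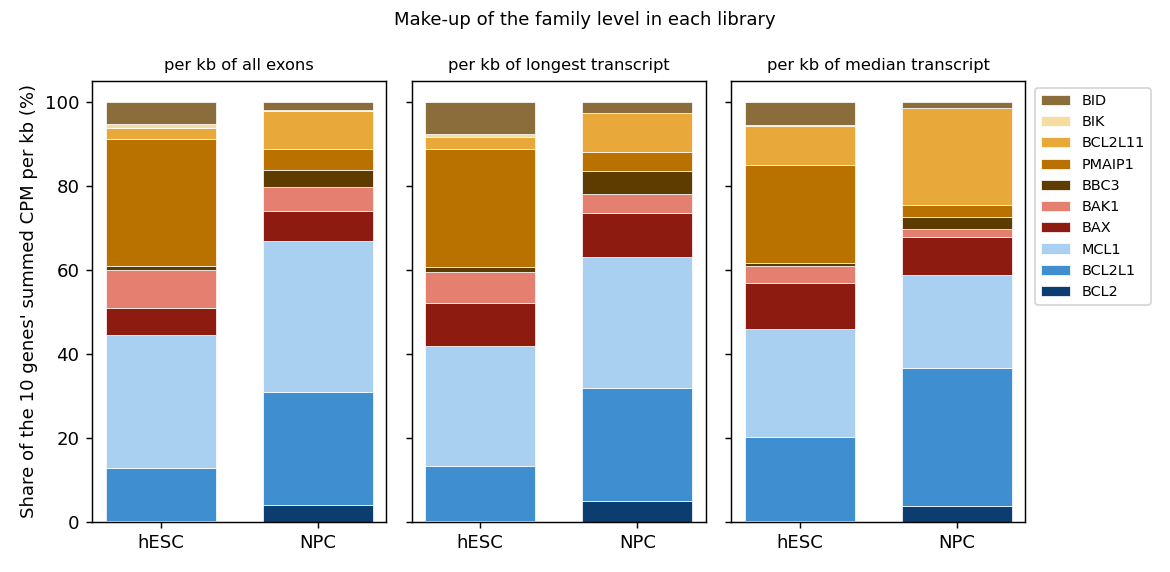
Share of each gene in the summed CPM per kb of the 10 genes (%), in the hESC and the NPC library, for 3 ways to set gene length; blue is anti-apoptotic, red effector, brown to yellow BH3-only. The blue part grows from 44.5% to 67.0% with all exons as length, and the PMAIP1 segment shrinks from 30.2% to 5.07%. Family genes outside the 10, such as BMF and BAD, are not included.

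Promoter sequences were searched for motifs that were chosen after the values were seen. RefSeq promoters (GRCh38.p14) were found for 8 of the 10 genes, and the 250 bases before each start were searched on both strands for CACGTG, the E-box that MYC binds, GTAAACA, a forkhead site, and TGACGT, the core of an ATF and CREB site. At least 1 match was found for 5 of these 8 genes, of which BID had 5 listed starts and so more windows searched. The share of all windows with any of the 3 motifs was not computed, only the share for each motif, given below. Whether this count is more or less than usual was therefore not tested. One window is shown for each motif, that of the member with most copies or the only match, 5′ to 3′ on the gene's strand, with the matches in capitals.

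BAX, chr19:48954625-48954874, plus strand: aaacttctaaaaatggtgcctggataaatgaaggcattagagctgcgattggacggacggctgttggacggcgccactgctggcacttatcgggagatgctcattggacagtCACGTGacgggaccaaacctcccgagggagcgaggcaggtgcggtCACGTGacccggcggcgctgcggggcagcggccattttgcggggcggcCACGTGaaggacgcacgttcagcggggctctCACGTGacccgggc
PMAIP1, chr18:59899746-59899995, plus strand: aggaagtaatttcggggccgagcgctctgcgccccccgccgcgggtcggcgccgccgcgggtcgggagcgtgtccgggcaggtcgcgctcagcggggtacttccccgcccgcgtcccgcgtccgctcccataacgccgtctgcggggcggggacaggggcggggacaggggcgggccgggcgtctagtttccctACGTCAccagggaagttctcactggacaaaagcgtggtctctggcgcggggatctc
BCL2L11, chr2:111120664-111120913, plus strand: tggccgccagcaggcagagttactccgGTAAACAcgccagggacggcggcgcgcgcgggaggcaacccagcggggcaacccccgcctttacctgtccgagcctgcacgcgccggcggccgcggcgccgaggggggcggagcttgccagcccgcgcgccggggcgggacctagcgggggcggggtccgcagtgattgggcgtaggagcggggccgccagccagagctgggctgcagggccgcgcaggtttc

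BAX held 4 copies of CACGTG, ending 9, 40, 88 and 133 bases before the start. Over all 35116 promoter windows 6.34% held the motif, and 5 windows held 4 or more copies. BBC3, whose log2 ratio was 1.03, held 1 copy. The overlapping windows of 2 of the 5 listed BID starts shared a single copy. MYC, listed here among transcriptional regulators of the family, had 2208 reads in hESC (127 CPM) and 40 in NPC (1.47 CPM), 85.3-fold lower (63.2 to 121). It passed the filter through the hESC library only. MYCN was 4.90-fold lower (4.51 to 5.32).

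The PMAIP1 window held TGACGT on the reverse strand (7.1% of windows), and ATF4, which binds such sites under amino acid stress, had 421 and 168 CPM, a log2 ratio of -1.32. The BCL2L11 window held GTAAACA (2.98% of windows). The forkhead gene FOXO1 was 7.12-fold lower in the NPC (6.09 to 8.41), while FOXO3 had 28.4 and 40.2 CPM and was not called. No match was found in the windows of BAK1, called lower, of BCL2, called higher, or of BCL2L1, not called. No promoter was found for MCL1 or BIK. The matches are letters in a window, and binding was not measured. Whether these regulators bear on the members' levels was not tested.

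Of 11 regulators in that list, 1 was higher and 4 were lower in the NPC, against 19.6% and 19.8% of all measured genes. Their median log2 ratio was -0.47. The lower genes were MYC, MYCN, FOXO1 and ATF4, the last named outside the rule for named genes, after its values were seen. The higher gene was JUN, an AP-1 subunit, at 2.28-fold (2.07 to 2.51).

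The other BCL2 family genes split evenly, 3 higher and 3 lower of 8 measured out of 12, with a median log2 ratio of 0.02. Over all measured genes the shares were 19.6% and 19.8%. BMF, a BH3-only gene whose protein is held at the cytoskeleton, was 3.84-fold higher in the NPC (3.43 to 4.32), from 19.7 to 75.6 CPM. BAD, a BH3-only gene whose product is inactivated by growth factor signalling, was 2.49-fold higher (2.17 to 2.89), and BNIP3L, a mitophagy receptor gene, 2.25-fold higher (2.11 to 2.41). BCL2L12 was 5.86-fold lower (5.06 to 6.83), the hypoxia-responsive mitophagy receptor gene BNIP3 3.99-fold lower (3.71 to 4.30) and BOK, an effector-like gene, 2.82-fold lower (2.47 to 3.21). BCL2L2, the gene of the anti-apoptotic BCL-W, had 12.3 and 18.7 CPM and was not called, and its reads may be split with the read-through gene BCL2L2-PABPN1. BCL2A1 had 0 reads in both libraries, which allows up to 0.173 CPM in hESC and 0.110 CPM in NPC.

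In the apoptosome and caspase list 4 of 13 measured genes were lower and none was higher, against 19.8% and 19.6% of all measured genes. The median log2 ratio was -0.40. CYCS, the gene of cytochrome c, had 334 and 76.5 CPM and was 4.36-fold lower (4.15 to 4.59). CASP10, an initiator caspase of death receptors, was 20.9-fold lower (13.1 to 37.5), and AIFM1, the gene of apoptosis-inducing factor, 3.53-fold lower (3.33 to 3.76). CASP10 passed the filter through the hESC library only (13.4 and 0.625 CPM), so no higher call was open to it. The fourth was DFFA, an inhibitor of the apoptotic nuclease, at 78.5 and 31.4 CPM, named after its values were seen. APAF1, the scaffold of the apoptosome, had 39.5 and 52.1 CPM, and CASP9, its initiator caspase, 11.4 and 9.41 CPM, neither of them called.

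Among the inhibitors of apoptosis and their antagonists, 1 of 6 measured out of 8 was lower and none higher (median log2 ratio 0.18). The shares over all measured genes were 19.8% and 19.6%. BIRC5, the gene of survivin, which also acts in mitosis, was 2.14-fold lower (2.02 to 2.27). XIAP, which blocks caspases, had 25.8 and 47.1 CPM, a ratio of 1.82 (1.64 to 2.04) that was not called. BIRC7 was at 0 reads in hESC and 8 in NPC.

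In the list of VDAC channels and genes of MCL1 turnover, 3 of 8 were lower and 1 was higher (median log2 ratio -0.45). Of all measured genes 19.8% were lower and 19.6% higher. VDAC2, whose channel recruits BAK to the outer membrane, was 2.87-fold lower (2.74 to 3.0) and VDAC1 2.82-fold lower (2.72 to 2.93). USP9X, which encodes a deubiquitinase that stabilises MCL1, was 2.85-fold lower (2.79 to 2.91), from 1369 to 481 CPM. TRIM17, which encodes a ligase that targets MCL1 in neurons, had 8 and 238 reads, 17.9-fold higher (9.49 to 44.5), and passed the filter through the NPC library only.

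**Figure D5:**
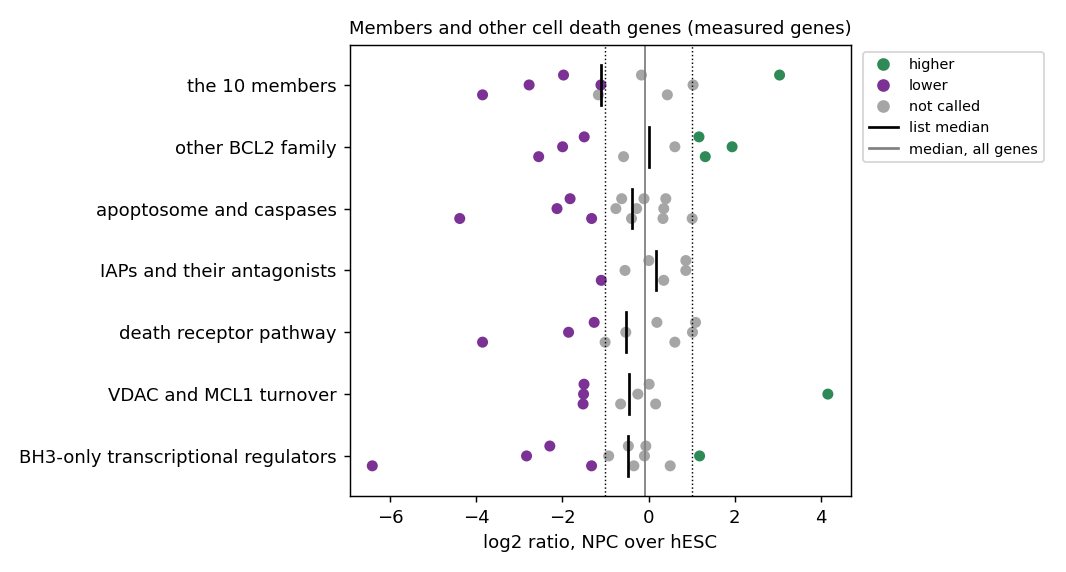
Log2 ratio, NPC over hESC, of each measured gene of the 10 members and of 6 other lists of cell death genes, 1 point a gene, with the list median as a black bar; dotted lines mark 2-fold and the grey line the median of all measured genes. The members' median of -1.11 lies to the left of the medians of the other lists, which range from -0.53 to 0.18.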

How the data were processed

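RNA was taken up in Trizol and made into libraries with a SMARTER mRNA-Seq kit, per the labels' protocols. Both deposited files hold unnormalized read counts, as whole numbers for each gene symbol, with 1 library a file (19686728 reads for hESC, 24065750 for NPC). TopHat, edgeR and hg19 are named, with no role, per the submitters' processing notes. How reads were counted (tool, strand, annotation) is not given in the sources used here.

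For the 286 symbols on several rows the row with most reads was kept, which set aside 0.0878% (hESC) and 0.107% (NPC) of reads. Libraries were scaled with TMM factors of edgeR 4.0.16 in R 4.3.3 (hESC 0.884, NPC 1.13). Log2 ratios have 0.5 added to each count. Intervals are exact (Clopper-Pearson for ratios, Poisson for levels, conditional odds ratio for read ratios, in scipy 1.17.1) and cover counting error only, since PCR copies were not told apart by molecular identifiers. The filter of 5 CPM equals 86.9 hESC reads and 136 NPC reads. The code was tested on simulated counts. Gene lengths and BH3 windows came from GENCODE 29, read with Biopython 1.88, and promoters from RefSeq, both of a later build than hg19.

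Beside the 10 members, the text names up to 3 called genes each way of each list by the bound farthest from no change, and APAF1, CASP9, XIAP and BCL2L2. Values of a few further genes and of 1 gene list were left out. Of the markers it names POU5F1, PAX6, COL3A1 and those at 0 reads. RBFOX3, S100B, AQP4, GFAP and ALDH1L1 were named after their values were seen. The members and lists were chosen with earlier results of these data known. With 1 library per group a pattern is a single ratio, so no likeness between genes is given.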

Additional observations from a re-analysis of the deposited data

How the results depend on the processing

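Each of 12 alternatives was run for the members' calls. BCL2 was called higher and PMAIP1 and BID lower under all 12, with log2 ratios from 2.73 to 3.40, -3.89 to -3.50 and -2.81 to -2.42. The filters at 1 CPM, at 20 CPM and none kept the same intervals, and each of these genes exceeded 20 CPM in 1 library. Those filters and the point ratio therefore could not undo these calls. BAK1 was called lower under all but the 4-fold bound, and MCL1 under all but that bound and the library total. Under the 4-fold bound 2 members were lower, with 1236 genes higher and 983 lower in all. The members' median log2 ratio was -0.75 with the library total and -0.68 with the length trend removed. Both that trend and the point ratio without an interval gave 2 higher members, BCL2 and BBC3. BAX was called lower by the point ratio and by log2 of CPM + 1, and BIK with a filter at 1 CPM or none. A filter at 20 CPM left 1684 genes higher. The anti-apoptotic share of the summed CPM per kb lay between 41.9% and 45.8% in the hESC and between 58.8% and 67.0% in the NPC library over 3 lengths. The BH3-only share lay between 39.1% and 40.6% in the hESC and between 20.3% and 30.2% in the NPC library. Each member was on 1 row, so summing all rows of a symbol could not change a read ratio between members. That alternative could move the members' log2 ratios only through the library scaling. Coding length from RefSeq proteins was not run.

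No paired analysis was possible because each group holds 1 library. There is no replicate check, so a batch and the condition cannot be told apart. At 3 to 23 reads BIK is limited by depth, and at 59 and 68 hESC reads the folds of BCL2 and BBC3 have the widest intervals among the measured members.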

Other observations

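The death receptor pathway meets the BCL2 family at BID. Of its 13 listed genes 9 were measured, 3 of them lower in the NPC library and 0 higher (median log2 ratio -0.53). Of all measured genes 19.8% were lower and 19.6% higher. TNFRSF10A, the gene of a TRAIL receptor, had 152 hESC reads and 16 NPC reads, 14.5-fold lower (8.86 to 26.7). Like CASP10, it passed the filter through the hESC library only (8.74 and 0.588 CPM), so no higher call was open to it. FADD, the adaptor that binds caspase-8 to the receptors, went from 73.0 to 20.1 CPM, 3.62-fold lower (3.28 to 4.01), and TNFRSF21, the gene of death receptor 6, was 2.40-fold lower (2.17 to 2.65). BID, which transmits this signal to mitochondria, and CASP10 fall in other lists and were lower as well, BID by 6.83-fold. Whether these differences are linked was not tested. CASP8 (10.9 and 8.27 CPM) and the caspase-8 inhibitor gene CFLAR (26.9 and 57.3 CPM) were not called, and were named after their values were seen.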
